A study of Mus musculus with 8 samples.

Results

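The nuclei described here form a small set of fibroblast-like nuclei of the adult mouse heart, named for Dkk3 and Prg4. They were chosen by their own counts: a nucleus was taken when at least 2 of 5 genes (Dkk3, Prg4, Prr16, Adamts15 and Kcnq5) had a UMI, a unique molecular identifier that counts 1 captured RNA molecule. The choice was made inside a gate that kept nuclei with 200 or more detected genes and under 5% mitochondrial UMIs. The gate also required Ttn, Ryr2 and Trdn, which mark heart muscle, to make up under 2% of the UMIs, and it required 0 UMIs of Cdh5, Csf1r, Rgs5 and Myh11, which mark endothelial cells, macrophages, pericytes and smooth muscle. The rule found 901 nuclei among 17239 in the gate (5.23%) and 37767 that passed the first filters. They are called Dkk3/Prg4 nuclei below, and were set beside 12453 other fibroblast-like nuclei of the same gate, which had fewer than 2 rule genes and at least 2 of 8 fibroblast genes (Pdgfra, Col1a1, Col1a2, Col3a1, Dcn, Lum, Tcf21 and Abca8a).

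The study profiled nuclei of whole hearts from female and male mice by droplet sequencing. The mice carried either no transgene (nTg) or a transgene for constant expression of CCNA2, the cell cycle protein cyclin A2 (Tg). The labels list 8 libraries, 2 for each sex and genotype. For 3 of the 4 nTg libraries (female 2, male 1 and male 2) the number of matrix columns differed from the length of the barcode list. Their column numbers, 8062, 8992 and 8931, equalled those of the Tg libraries of the same sex and number, for a reason that was not tested. These 3 libraries were not analysed here. This left 5 libraries: nTg female 1, and a pair of Tg libraries of each sex, numbered 1 and 2. The labels do not give the strain, the promoter of the transgene, or whether libraries came from separate animals, so the p-values measure only the spread between these libraries, which may be technical. Ccna2 itself went against the labels in the other fibroblast-like nuclei, where it stood at 13.3 CPM (UMIs of the gene scaled to a common total, as for all CPM values here) in the library labelled nTg female 1. It stood at 0.81 CPM in the one labelled Tg female 1, at 33.2 CPM in Tg female 2, and at 8.45 and 7.83 CPM in the 2 male ones. Libraries are therefore named by their labels, and no genotype was inferred.

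Total depth ran from 25045167 to 38593706 UMIs per library, and 2667 to 4377 nuclei per library lay in the gate. Any pair of libraries shared 14 to 28 of all their listed barcodes, and no pair shared a barcode of a Dkk3/Prg4 nucleus. The library labelled Tg female 2 stood apart in 1 of the rule genes, Adamts15, in every class of nuclei. In its other fibroblast-like nuclei Adamts15 was at 6.63 CPM, against 169 to 362 CPM in the other 4 libraries. In its nuclei with 2% or more of Ttn, Ryr2 and Trdn it was at 5.94 CPM, against 43.5 to 71.6 CPM. Counts of Dkk3/Prg4 nuclei are therefore also given without Adamts15 in the rule, an alternative chosen after the data had been seen. Prr16, which stays in that rule, was also lowest in Tg female 2 in the other fibroblast-like nuclei, though not in every class. It stood there at 4.42 CPM, against 6.97 to 17.9 CPM in the other 4 libraries.

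Fibroblasts of the heart build and turn over the collagen and proteoglycan matrix, and differ by site: around vessels, between muscle fibres, in the valves and near the outer surface. Secreted proteins such as WIF1 and the frizzled-related proteins bind Wnt ligands outside the cell and keep them from their receptors, and Wif1 and Dkk3 have marked a small group of fibroblasts in earlier single-cell work on mouse heart. Dkk3 belongs by sequence to the Dickkopf family, whose other members block the Wnt co-receptor. Prg4 encodes lubricin, the glycoprotein that coats joint surfaces and tendon. Adamts15 encodes a secreted metalloprotease that cuts versican and aggrecan, Kcnq5 a voltage-gated potassium channel, and Prr16 a protein linked to cell size. In the GRCm38 build, Dkk3 lies at chr7:112116017-112159057 on the minus strand and Prg4 at chr1:150449412-150466165 on the minus strand.

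The Dkk3/Prg4 nuclei carried fibroblast genes, but most of them did not carry the pair of genes they are named for. At least 2 of the 8 fibroblast genes were detected in 863 of the 901 nuclei (95.8%). That measure was also met by 26.4% of passing nuclei with a Cdh5 UMI. Dkk3 or Prg4 was among the detected rule genes in 663 of the 901 nuclei (73.6%), and both were in 203 (22.5%). The commonest combination was Prr16 with Adamts15 alone, in 183 nuclei, followed by Prg4 with Adamts15 in 159, Dkk3 with Adamts15 in 157 and Dkk3 with Prg4 in 83. Exactly 2 rule genes were found in 705 nuclei, 3 in 144, 4 in 47 and all 5 in 5. Just outside the threshold, 5055 gate nuclei had 1 rule gene, which was Adamts15 in 3462 of them (68.5%), and 88.8% of these 5055 were fibroblast-like. Dkk3/Prg4 nuclei were also deeper, with a median of 3305 UMIs against 2587 in the other fibroblast-like nuclei, and depth raises the chance of detecting 2 genes.

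Without Adamts15 in the rule, 357 of the 901 nuclei still met it and 544 (60.4%) did not. The nuclei that needed Adamts15 numbered 99 of 188 in the library labelled nTg female 1. They numbered 175 of 282 and 7 of 73 in the Tg female pair, and 129 of 187 and 134 of 171 in the Tg male pair. The library labelled Tg female 2, where Adamts15 was low in every class, thus had far the lowest share of such nuclei, 9.59%, against 52.7% to 78.4% in the others.

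**Figure D1:**
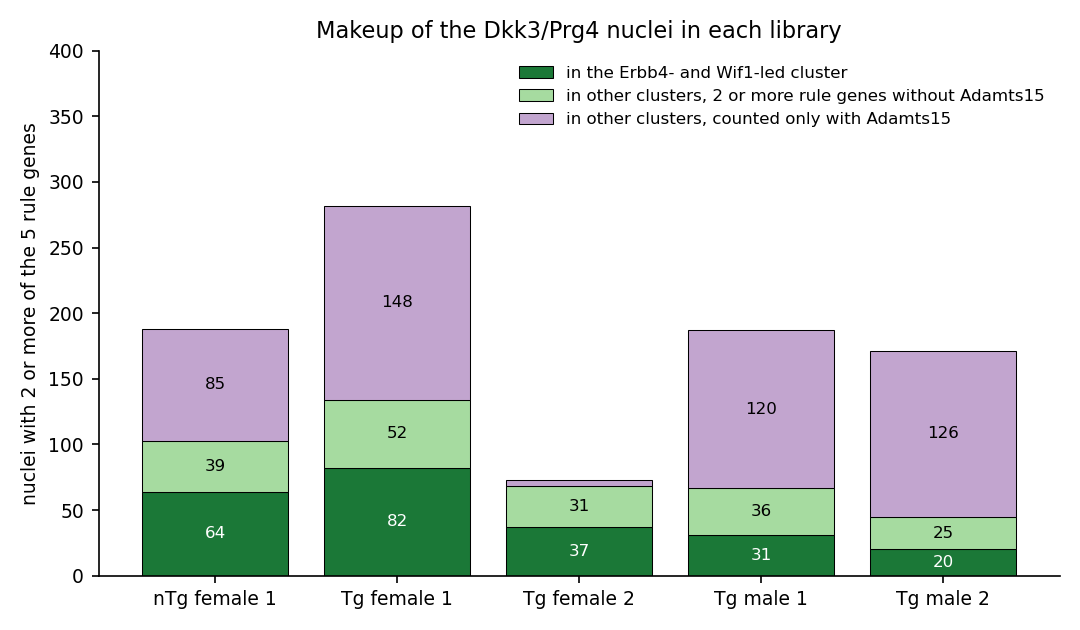
Number of Dkk3/Prg4 nuclei (y axis) in each of the 5 libraries (x axis), split by whether the nucleus lay in cluster 17 of the gate, led by Erbb4 and Wif1 among others, and whether it met the rule without Adamts15. The top segment, nuclei outside cluster 17 that needed Adamts15, holds 85, 148, 5, 120 and 126 nuclei from left to right and sets most of the difference in total height between the library labelled Tg female 2 and the rest.

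Nuclei of other kinds also met the same count rule. Of passing nuclei with a Cdh5 UMI, 3.58% had 2 or more rule genes at a median depth of 2559 UMIs. Of those with a Csf1r UMI, 3.59% did at 2859 UMIs, against 5.23% of gate nuclei at 2424 UMIs. Of the deep nuclei with 2% or more of Ttn, Ryr2 and Trdn, 5.84% did at 7293 UMIs, above the share of the gate. Without Adamts15 the 3 shares were 1.63%, 1.84% and 0.729%, all below the 2.07% of the gate. The 3 classes were not free of fibroblast genes: 26.4%, 24.3% and 11.8% of their nuclei were fibroblast-like by the 8 genes, and in Tg female 2 the first 2 of these were 42.2% and 40.8%. They therefore give no clean background for detection of the rule genes.

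Each rule gene was higher in the Dkk3/Prg4 nuclei of every library than in the other fibroblast-like nuclei of the same library, which the rule fixes. Values are CPM of UMI counts summed over the nuclei of a class. Where 5 values are given from here on, the order is nTg female 1 first, then the Tg female pair (1, 2) and last the Tg male pair (1, 2). Dkk3 stood at 387, 430, 653, 202 and 142 CPM. It was highest in Tg female 2, and all 3 female libraries lay above both male ones. Prg4 stood at 467, 274, 875, 304 and 308 CPM, again highest in Tg female 2, with the male libraries inside the range of the female ones. Kcnq5 followed at 562, 347, 711, 187 and 246 CPM, and here too the female libraries lay above the male ones. Prr16 ran the other way, at 185, 151, 93.3, 249 and 292 CPM, higher in both male libraries than in any female one. Adamts15 stood at 903, 702, 75.5, 805 and 679 CPM, with Tg female 2 far below the other 4. Because detection of these genes chose the nuclei, a gene that is scarce in a library, as Adamts15 is in Tg female 2, leaves nuclei chosen by the others, and these levels are a description.

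**Figure D2:**
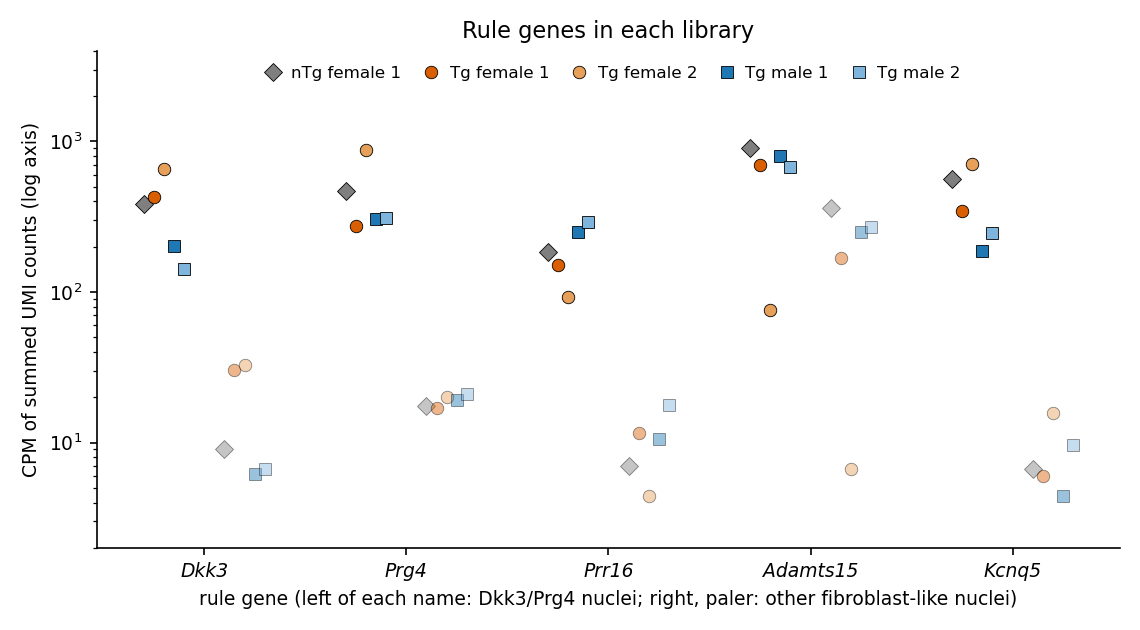
CPM of summed UMI counts (log axis) of the 5 rule genes (x axis) in each library, in the Dkk3/Prg4 nuclei (left points) and in the other fibroblast-like nuclei (right, paler points). The low points of Adamts15 in both classes are the library labelled Tg female 2, at 75.5 and 6.63 CPM.

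To see whether these nuclei lie together when the genes that chose them are left out, the 17239 gate nuclei were clustered on variable genes without the 5 rule genes, the sex-linked genes and Ccna2. Of 23 clusters, 1 was made up mostly of Dkk3/Prg4 nuclei. Cluster 17 held 316 nuclei, of which 234 (74.1%) were Dkk3/Prg4 nuclei, and the next highest share in any cluster was 14.0%. These 234 were 26.0% of all 901, and 174 of them met the rule without Adamts15. Among the 10 genes that led cluster 17 were Erbb4, Pdzrn4, Kcnma1, Car3, Kcnq5, Wif1, Dkk3, Cyp2e1 and Prg4, of which 3 are rule genes. These had not been used in the clustering. The rule was chosen with earlier results of these data known, so their place among the leading genes is no independent support. With the rule genes kept in, the cluster that held most of them took 27.2% of the Dkk3/Prg4 nuclei, and at a coarser resolution of 0.5 it took 25.1%.

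The other 667 Dkk3/Prg4 nuclei were spread over 21 of the remaining 22 clusters. Cluster 4, led by Fgf10, Vit and Inmt, held 158 of them, of which 26 met the rule without Adamts15. Cluster 5, led by Cilp, Ltbp2 and the long RNA 8030451A03Rik, with the matrix gene Postn next, held 118, of which 65 met it without Adamts15. Cluster 1, led by the channel subunit gene Kcnip1, held 88, and cluster 2, led by Cd248, held 72. Clusters led by genes of other cell types held a few, such as 27 in cluster 8, with Flt1 among its leading genes, and 25 in cluster 13, with Ryr2 and Trdn. In all, 484 of the 667 needed Adamts15 and 183 did not. The label of 1 group of Dkk3 and Prg4 nuclei thus describes the 26.0% in cluster 17, and the count rule also took nuclei from most other clusters.

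**Figure D3:**
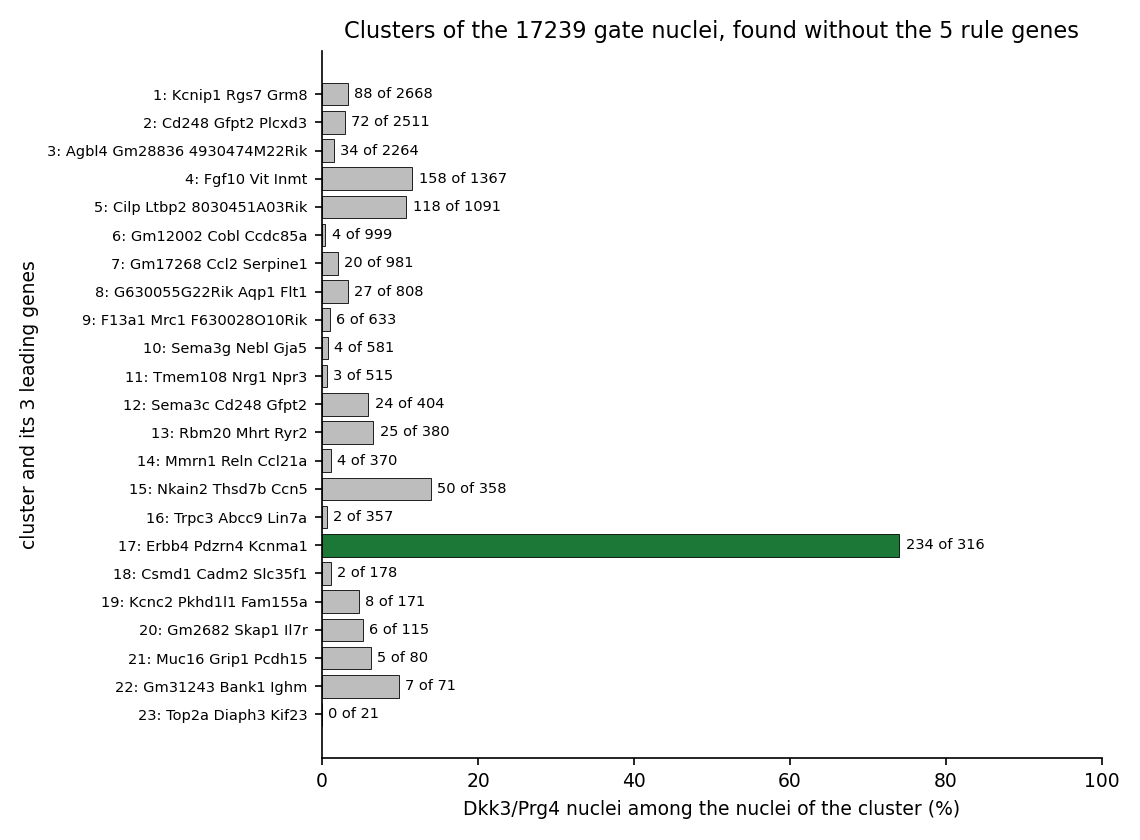
Share of the nuclei of each cluster (x axis, %) that met the count rule, for the 23 clusters of gate nuclei found without the rule genes (y axis, each with its 3 leading genes). Cluster 17 stands at 74.1%, and no other bar passes 14.0%.

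Cluster 17 nuclei made up 2.77% of the gate nuclei (95% Clopper-Pearson interval 2.18% to 3.47%) in the library labelled nTg female 1. In the Tg female pair they made up 2.42% (1.99% to 2.92%) and 1.74% (1.35% to 2.20%). In the Tg male pair they made up 1.19% (0.862% to 1.61%) and 0.973% (0.648% to 1.40%). All 3 female libraries lay above both male ones. The intervals cover counting error only, and since genes that define the cluster could differ between the sexes, this order is given with no test. The 82 nuclei of cluster 17 that did not meet the rule were not all of the same kind: the adipocyte markers summed to between 60.6 and 933 CPM in them, and to between 0 and 126 CPM in the Dkk3/Prg4 nuclei of the cluster. The part of adipocyte nuclei in the order of the shares was not tested. The Dkk3/Prg4 nuclei in the cluster numbered 64, 82, 37, 31 and 20.

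The Dkk3/Prg4 nuclei of cluster 17 were set beside the other fibroblast-like nuclei outside it, gene by gene. Since the group was found by clustering the same nuclei, what follows describes it and carries no test. Of 8692 genes at 20 CPM or more in either class, 441 (5.07%) were at least 2-fold higher on the means over libraries and higher in 5 of 5 libraries. Another 633 (7.28%) were at least 2-fold lower and lower in 5 of 5. The strongest was Erbb4, at chr1:68032186-69108059 on the minus strand, which encodes a receptor tyrosine kinase for neuregulins. It stood at 6337, 5127, 2728, 5706 and 4341 CPM in the 5 libraries, against 7.93 to 23.5 CPM in the other fibroblast-like nuclei. No library came near the other class, and the lowest was Tg female 2. The long genes Pdzrn4 (an E3 ubiquitin ligase of the PDZ-RING type) and Kcnma1 (the large-conductance calcium-activated potassium channel) had means of 1395 ± 666 (SD, n = 5) and 971 ± 430 CPM, against 10.3 and 9.55 CPM.

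Wnt genes were spread over both sides of the pathway. Among secreted antagonists, Wif1, at chr10:121033960-121100650 on the plus strand, stood at 149, 413, 343, 273 and 281 CPM. In the other fibroblast-like nuclei it was between 0 and 1.34 CPM, and the groups did not overlap. Frzb, a frizzled-related antagonist, had a mean of 161 ± 58.6 CPM against 61.1 CPM. Of the 5 antagonist genes above 20 CPM (13 were listed), these 2 were 2-fold higher in every library and none was lower. Among genes switched on by Wnt signalling and acting as its feedback, 4 of 6 above 20 CPM were higher and none lower. They were Axin2, a scaffold of the β-catenin destruction complex, Nkd1 and Nkd2, which bind Dishevelled, and Apcdd1, a membrane inhibitor. Axin2 stood at 33.4, 55.2, 27.8, 29.3 and 29.6 CPM against 2.96 to 4.78 CPM, on only 32 UMIs in all. Rspo3, a secreted enhancer of Wnt signalling, had a mean of 144 ± 37.3 CPM against 2.12 CPM, and Lgr5, a receptor for R-spondins, 40.3 ± 27.2 CPM against 0.79 CPM. Of the Wnt receptors, Fzd6 and Lgr5 were higher and Fzd4 and Ror2 lower among 9 above 20 CPM. Of 4 ligands above 20 CPM, Wnt5a alone was higher, at a mean of 64.0 ± 47.2 CPM against 17.5 CPM.

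Some genes of cartilage, tendon and valve matrix were also higher in cluster 17. Of the 12 listed markers of valve interstitial cells and fibrocartilage, 8 were above 20 CPM, 5 of these were 2-fold higher in every library and none was lower. Comp, the pentameric matrix protein of cartilage and tendon, stood at 212, 180, 325, 156 and 326 CPM against 3.93 to 7.14 CPM. The other 4 were Fmod (fibromodulin), Chad (chondroadherin), Hapln1 (which links hyaluronan to proteoglycans) and Cilp2, with means of 120, 61.2, 72.9 and 23.5 CPM against 3.14, 0.84, 2.82 and 0.55 CPM. The defining cartilage gene Acan had 0 UMIs in these nuclei, the tendon genes Scx and Tnmd had 3 and 1, and Sox9 overlapped between the classes, at 0 to 70.6 CPM against 14.9 to 39.6 CPM. The list therefore marks the nuclei only in part, and the name of neither cell type is given to them. Among collagens, Col11a1 and Col12a1 were higher and 7 of 18 above 20 CPM were lower, among them the basement membrane chains Col4a1 and Col4a2. Col11a1 varied widely, from 39.0 CPM in Tg male 1 up to 459 CPM in the other male library. Small proteoglycans split in the same way, with Fmod, Prelp and Chad higher and Ogn, Omd, Aspn and Podn lower out of 11.

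Genes that turn the matrix over differed within 1 family. Adamts6, Adamts12, Adamts19 and the inhibitor Timp3 were higher, with means of 371, 740, 325 and 701 CPM against 87.9, 189, 83.9 and 347 CPM. Adamts1, Adamts5 and Adamtsl3 were lower, and Adamts5 stood at 121 to 148 CPM against 487 to 717 CPM. Among hyaluronan genes, the receptor Cd44 and Itih5 were higher, 2 of 5 above 20 CPM. Of the activated fibroblast markers, Postn, Ltbp2 and Acta2 were higher and Col8a1 lower among 8. Postn stood at 631, 608, 538, 536 and 385 CPM against 54.5 to 112 CPM, whereas the contractile gene Acta2 was scarce in both classes, on 16 UMIs in these nuclei.

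The markers of the large fibroblast groups were low in cluster 17. Of 7 adventitial markers, 6 were 2-fold lower in every library and none higher: Pi16, Cd248, Dpp4, Mfap5, Igfbp6 and Ly6a. Pi16 stood at 81.7, 73.7, 121, 48.8 and 74.1 CPM against 504 to 533 CPM, and Dpp4 had 0 UMIs against a mean of 47.1 CPM. Of 6 interstitial markers, 5 were lower: Col15a1, Kcnk2, Gpx3, Cxcl14 and Hmcn2. The 8 general fibroblast genes were all present but summed to less, 3981 to 6262 CPM against 6290 to 9429 CPM, with no overlap. The other class had been chosen by detection of at least 2 of these 8 genes, which raises their level there. Their lower levels in cluster 17 are therefore a description only. Of the 8, Pdgfra, Tcf21 and Abca8a were 2-fold lower in every library and none was higher, with a median log2 ratio of -0.58 beside -0.05 over all 8692 genes. Pdgfra, a growth factor receptor, stood at 255 ± 68.6 CPM against 714 ± 76.3 CPM. The matrix gene Dcn overlapped between the classes, at 1744 to 3121 CPM against 1919 to 3620 CPM, and Col1a1 had a mean of 234 ± 23.9 CPM against 233 CPM.

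Dkk3/Prg4 nuclei outside cluster 17 shared little of this. In the 183 that met the rule without Adamts15, Erbb4 was between 69.0 and 354 CPM, Wif1 between 0 and 29.0 CPM and Comp between 35.4 and 91.0 CPM. The values of Erbb4 and Comp lie between those of cluster 17 and those of the other fibroblast-like nuclei. Those of Wif1 lie below cluster 17 and overlap the other fibroblast-like nuclei. Pi16, at 424 to 645 CPM, was at the level of the other fibroblast-like nuclei. In the 484 that needed Adamts15, Erbb4 was between 4.54 and 155 CPM, and Wif1 was at 0 CPM in 3 libraries, 9.54 CPM in Tg female 1 and 214 CPM in Tg female 2. Kcnma1 had a mean of 10.3 CPM, Comp 5.23 CPM and Chad 0 UMIs, close to the 9.55, 6.21 and 0.84 CPM of the other fibroblast-like nuclei. The values of Tg female 2 in this subset rest on 5 nuclei. Summed over the valve and fibrocartilage list, the level was 1020 ± 124 CPM in cluster 17, 617 ± 109 CPM elsewhere without and 254 ± 76.9 CPM with need of Adamts15, beside 293 ± 65.1 CPM in the other fibroblast-like nuclei.

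**Figure D4:**
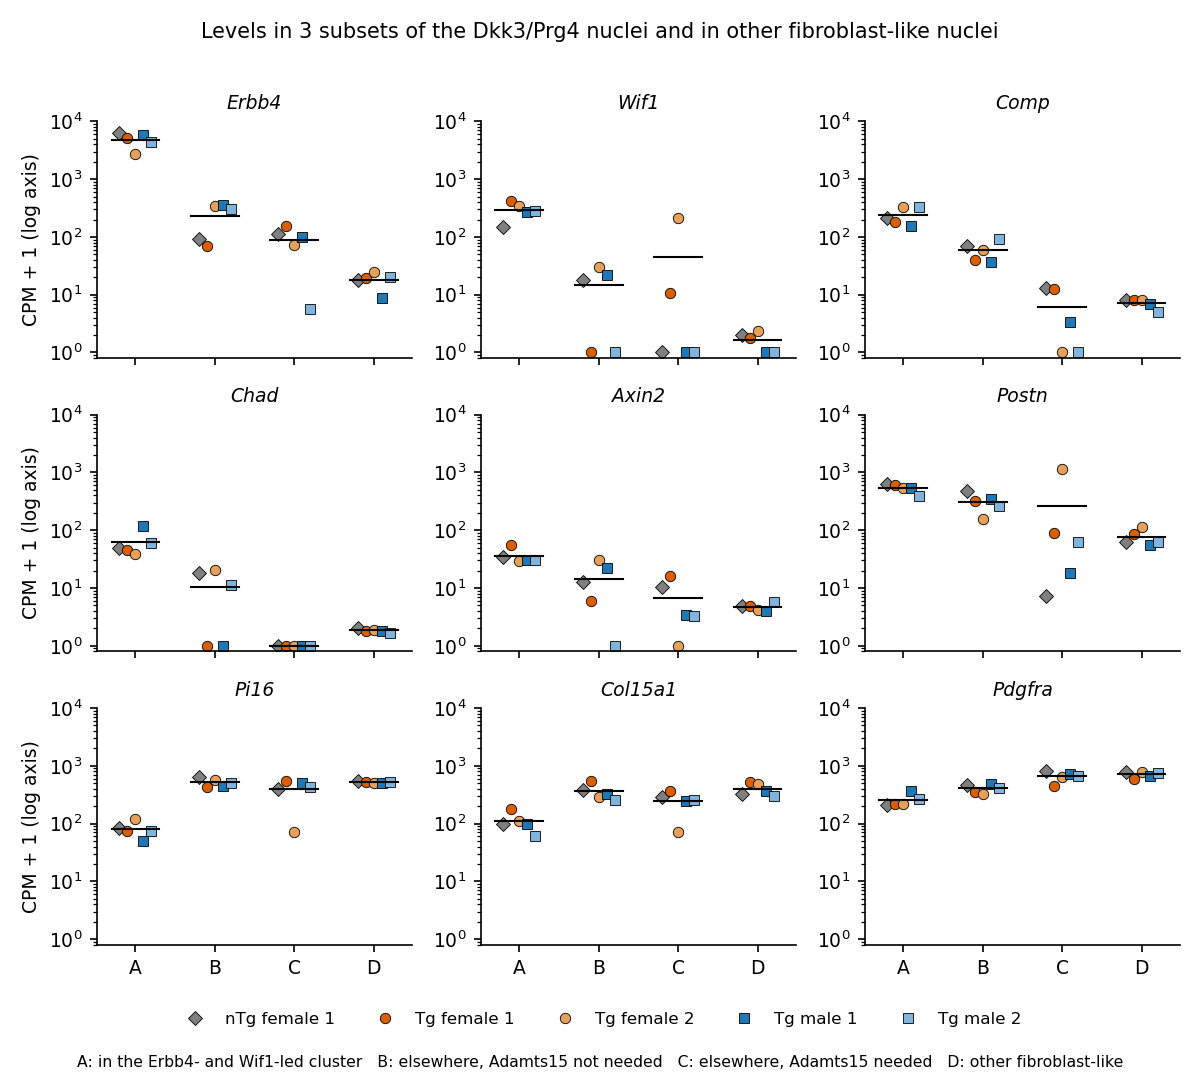
CPM + 1 (log axis) of 9 genes in each library (points) with the mean of 5 libraries (line), in the Dkk3/Prg4 nuclei of cluster 17 (A), those elsewhere that met the rule without Adamts15 (B), those elsewhere that needed it (C) and the other fibroblast-like nuclei (D). The means of Erbb4, Wif1, Comp and Chad are highest in A, Pi16 and Col15a1 are lower in A than in D, and the points of Tg female 2 in C rest on 5 nuclei.

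The comparison was repeated over all 901 nuclei. Of 8417 genes at 20 CPM or more, 191 (2.27%) were at least 2-fold higher and higher in 5 of 5 libraries, and 32 (0.38%) at least 2-fold lower and lower in 5 of 5. The ratio of members to other fibroblast-like nuclei is on the log2 scale with 1 CPM added to both means. Rule genes aside, among genes at 50 CPM or more it was highest for Erbb4 (5.40), Wif1 (5.26), Pdzrn4 (4.81), Kcnma1 (4.62), Cyp2e1 (4.38) and Comp (3.48). Among the next were Cadm1, an adhesion molecule (3.14), Kcnb2, a potassium channel (3.03), P3h2, a collagen prolyl hydroxylase (2.89), Ism1 (2.67), Smim3 (2.61), Pdlim3 (2.52), Stk17b (2.51) and Aff2 (2.38). With 3 or more rule genes required, the count rose to 359 higher and 364 lower, and with Adamts15 left out of the rule to 328 and 197. Of the 191 higher genes, 164 were among the 328.

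The genes lowest against the other fibroblast-like nuclei included leading genes of other clusters. Among genes at 50 CPM or more, Slc35f1 had the lowest log2 ratio (-2.31), followed by Csmd1 (-2.11), both of which led the small cluster 18 with the glial genes Chl1 and Ptprz1. Next were Tll2 (-1.60), Npr3 (-1.60), the natriuretic peptide clearance receptor found in endocardium, and Kcnip1 (-1.46). Tll2 and Kcnip1 led cluster 1. The last 5 were Morrbid (-1.34), Pla1a (-1.29), Adgrl3 (-1.25), 4930474M22Rik (-1.12) and Kcp (-1.11). Few nuclei of either class had a UMI of Slc35f1 (1.11% of Dkk3/Prg4 nuclei and 1.54% of the others), Csmd1 (2.55% and 3.28%) or Npr3 (4.66% and 4.77%). Their low ratios thus came with close shares of nuclei. The other fibroblast-like nuclei were chosen by detected genes and not by cluster. The part of nuclei of other cell types among them in these ratios was not tested. Tll2 (6.66% and 16.5%) and Kcnip1 (8.77% and 16.2%) were found in a smaller share of the Dkk3/Prg4 nuclei. Tll2 stood at 13, 36.1, 0, 77.6 and 36.3 CPM against 38.5 to 177 CPM, so the classes overlapped between libraries although every library was lower within itself. Without the library labelled Tg female 2, 21 genes met the rule for lower, and without Tg male 1 or Tg male 2, 51 and 55.

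Depth was then equalised by thinning each nucleus to 1000 UMIs, which left out 3 Dkk3/Prg4 nuclei and 195 others. Erbb4 was detected in 25.1% of the thinned Dkk3/Prg4 nuclei and 1.31% of the other fibroblast-like nuclei (30.7% and 2.55% unthinned). Wif1 was detected in 5.57% and 0.12% (9.43% and 0.28% unthinned), Kcnma1 in 12% and 0.74%, and Comp in 3.90% and 0.64%. The higher shares were thus present at equal depth, and most Dkk3/Prg4 nuclei had no UMI of any one of these genes. The nuclei themselves had been chosen at full depth, which thinning does not undo. At 1000 UMIs, 0.962% to 2.36% of the gate nuclei of a library met the rule, against 1.92% to 7.05% unthinned. Adamts15 was found in 14.7% of the thinned other fibroblast-like nuclei, against 1.69% for Dkk3, 1.49% for Prg4, 0.78% for Prr16 and 0.49% for Kcnq5. It was the only rule gene found in over 2% of them.

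Markers of other cell types were present in both classes, those of cardiomyocytes most. The 7 cardiomyocyte markers summed to 2038, 2354, 1035, 1661 and 1829 CPM in the Dkk3/Prg4 nuclei and to 1485, 1237, 1825, 924 and 1307 CPM in the other fibroblast-like nuclei. They were thus higher in the Dkk3/Prg4 nuclei of 4 of 5 libraries and lower in Tg female 2, and 58.7% of the 901 nuclei had 2 or more of them. The sum was 835 ± 173 CPM in the Dkk3/Prg4 nuclei of cluster 17, 2225 ± 1013 CPM in those elsewhere that met the rule without Adamts15 and 2126 ± 934 CPM in those elsewhere that needed it. The 5 endothelial markers summed to 259 to 533 CPM and 369 to 433 CPM. Mesothelial markers reached 311 CPM in Tg female 2, against 0 to 90.6 CPM in the other libraries, and 6 nuclei in all had 2 or more of these 7 genes. B lymphocyte markers ran from 1.52 to 72.5 CPM against 3.58 to 14.4 CPM, and adipocyte markers from 0 to 44.2 CPM against 0.67 to 4.96 CPM. Putative doublets were 59 of the 901 nuclei (6.55%), against 3.44% of the other fibroblast-like nuclei, as marked by a doublet caller or, in Tg female 2, where it marked none, as the top 5% of its scores. These nuclei were kept, and without them 199 genes were higher and 34 lower. The part of such RNA in single values was not tested.

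Overlap with 3 pairs of markers of large fibroblast groups was partial. Both Pi16 and Cd248 were detected in 62 Dkk3/Prg4 nuclei, which is 6.88% of them and 5.29% of the 1171 gate nuclei with that pair. Both Col15a1 and Kcnk2 were detected in 133 (14.8%, and 5.02% of 2650), and both Kcnip1 and Gfra1 in 44 (4.88%, and 4.32% of 1019). In the other fibroblast-like nuclei the 3 pairs were detected in 8.90%, 20.2% and 7.83%.

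The share of gate nuclei that met the rule did not differ between the sexes beyond the spread of the libraries. It was 7.05% (95% Clopper-Pearson interval 6.11% to 8.09%) in the library labelled nTg female 1. In the Tg female pair it was 6.44% (5.73% to 7.21%) and 1.92% (1.51% to 2.41%), and in the Tg male pair 5.32% (4.60% to 6.11%) and 5.94% (5.11% to 6.87%). Tg female 2 was alone at the bottom, and the male libraries lay between the female ones. In the Tg libraries the means were 4.18% ± 3.20 (SD, n = 2) in females and 5.63% ± 0.444 (n = 2) in males, a difference of -1.45 percentage points (two-sided exact permutation test over libraries, p = 1, where 2 against 2 allows no p under 0.333). Without Adamts15 in the rule the shares were 3.34%, 2.44%, 1.74%, 1.65% and 1.29%. All 3 female libraries then lay above both male ones, the 2 Tg female above the 2 Tg male by 0.623 percentage points (two-sided exact permutation test, p = 0.333, the smallest possible). Counting nTg female 1 with the females, it was 1.04 points (exact p = 0.2). The direction of the sex difference thus turned with Adamts15, and it also turned without Tg female 2, to 0.813 points. The genes left in the rule differed by sex as well. Dkk3 was detected in 6.04%, 8.41%, 6.08%, 3.04% and 2.26% of all gate nuclei. Kcnq5 was also found in a larger share in every female library, Prr16 in a smaller one, and Prg4 overlapped. The part of these genes in the order of the shares was not tested.

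Sex differences in expression were tested in the 4 Tg libraries with edgeR's quasi-likelihood test on UMI counts summed over the Dkk3/Prg4 nuclei, with Benjamini-Hochberg adjustment over all 9372 genes tested. Of these, 5 (0.0534%) had an adjusted p under 0.05, 4 of them on the sex chromosomes. Xist and Tsix were higher in females: Xist had 2012 and 360 UMIs in the 2 female libraries and 0 in both male ones, at least 817-fold higher against a floor of 3 UMIs over the male group. Reads of Xist and Tsix, which overlap on opposite strands, may not be told apart. Uty and Ddx3y were lower in females, with 1 UMI each against 283 and 98 in males. Kdm5d and Eif2s3y, also on Y, had 0 female UMIs and missed the threshold (edgeR adjusted p = 0.0633 and 0.0687) on 54 and 105 male UMIs. An unadjusted p under 0.05 was found for 762 genes, and for 3624 (38.7%) the 2 female and 2 male libraries did not overlap. With DESeq2's size factors in the same test 8 genes passed, 2 higher and 6 lower in females, against 2 and 3. DESeq2 called 42, and leaving out 1 library at a time gave 50 to 617 genes, with 617 without Tg female 1 and 325 without Tg female 2; the 5 genes were among the calls each time a library was left out.

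The only autosomal gene called was Lvrn, which encodes the membrane aminopeptidase laeverin. In the Dkk3/Prg4 nuclei it stood at 80.7, 54.1, 17.8, 429 and 628 CPM, and the male libraries lay above every female one. Its log2 difference, female minus male, was -3.65 ± 0.38 (SE, edgeR adjusted p = 0.0132). Over the alternatives tried that gave it a value its adjusted p stayed at or below 0.0229. The other fibroblast-like nuclei showed the same order, at 275, 80.5, 38.2, 535 and 725 CPM, and the sex difference was not found to differ between the classes (-0.37 on the log2 scale, edgeR adjusted p = 1). In both classes every female library thus lay below both male ones. The library labelled nTg female 1, at 275 CPM in the other fibroblast-like nuclei, stood well above the Tg female pair. With the rule genes kept in the clustering, a cluster led by Lvrn held 9.11%, 4.84%, 7.26%, 7.62% and 9.77% of the gate nuclei. It held 27 of the Dkk3/Prg4 nuclei. In the clustering without the rule genes, cluster 4, led by Fgf10, held 158 of them. Its shares of the gate nuclei were 6.71%, 7.43%, 3.87%, 11.2% and 11.2%, higher in both male libraries than in any female one. The part of such makeup in the levels of Lvrn was not tested.

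No gene of the fixed pathway and cell type lists other than the sex-linked genes passed the test. Wif1 stood at 56.0, 117, 191, 47.2 and 31.3 CPM, with both Tg female libraries above both male ones, and its log2 difference was 1.82 ± 0.34 (SE, edgeR adjusted p = 0.101). Adamts19 stood at 275, 219, 284, 92.8 and 89.0 CPM, and its difference was 1.38 ± 0.23 (edgeR adjusted p = 0.0902). Of 4 secreted Wnt antagonists tested 0 passed, of 7 valve and fibrocartilage genes 0, of 7 activated fibroblast genes 0 and of 6 interstitial genes 0. Medians of the log2 difference over these lists were -0.11, 0.38, 1.08 and -1.11, beside 0.00 over all 9372 genes. An unadjusted p under 0.05 was found for 1, 2, 4 and 4 of them, and for 762 of all 9372 genes. Because the share of cluster 17 and of nuclei needing Adamts15 also differed between the libraries, a change within nuclei and a change in the makeup of the set cannot be told apart here.

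The sex difference in the Dkk3/Prg4 nuclei was compared with that in the other fibroblast-like nuclei of the same 4 libraries, as a class by sex term with the library as a block. Of 15517 genes, 6 (0.0387%) had an edgeR adjusted p under 0.05. The clearest was 9330159F19Rik, a protein-coding gene on chromosome 10. In the other fibroblast-like nuclei it stood at 36.8, 8.20, 9.87, 134 and 121 CPM, and both Tg female libraries were far below both male ones. In the Dkk3/Prg4 nuclei it stood at 193, 63.1, 147, 228 and 130 CPM, and the sexes overlapped. The difference of the differences was 2.87 ± 0.32 (log2, SE, edgeR adjusted p = 0.000104). Ctnna3, which encodes the αT-catenin of adherens junctions, stood at 457, 632, 1057, 427 and 611 CPM in the Dkk3/Prg4 nuclei. In the other fibroblast-like nuclei it stood at 152, 177, 139, 338 and 409 CPM, higher in both male libraries. Its term was 1.87 ± 0.24 (edgeR adjusted p = 0.000522). Lrrtm3, a synaptic adhesion gene, had a term of 1.10 ± 0.20 (edgeR adjusted p = 0.0366). It lies at chr10:63928472-64090277 inside Ctnna3 (chr10:63430098-65003667) on the opposite strand, so reads of the pair may not be separable.

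The other 3 genes were Rin2, Grm8 and Ank3. Rin2, a regulator of the small GTPase Rab5, stood at 441, 618, 582, 233 and 302 CPM in the Dkk3/Prg4 nuclei, with all female libraries above both male ones. In the other fibroblast-like nuclei it stood at 147, 182, 121, 145 and 167 CPM and the sexes overlapped (term 1.20 ± 0.20, edgeR adjusted p = 0.0178). Grm8, a glutamate receptor, stood at 27.3, 13, 4.44, 65.4 and 37.9 CPM in the Dkk3/Prg4 nuclei (term -2.76 ± 0.46, edgeR adjusted p = 0.0178), and the value of Tg female 2 rests on 1 UMI. Ank3, which encodes ankyrin-G, stood at 87.2, 279, 75.5, 63.9 and 69.2 CPM, so that Tg female 1 alone was high (term 1.72 ± 0.31, edgeR adjusted p = 0.0366). Without that library the term of Ank3 fell to 0.77 and missed the threshold. Without Adamts15 in the rule, the terms of Grm8 and Ank3 turned sign, to 5.42 and -0.23, with an edgeR adjusted p of 1 for both. DESeq2 called 2 of the 6, 9330159F19Rik and Ctnna3. Leaving out 1 library at a time gave 12 to 332 genes, the most without Tg female 1. The terms of 9330159F19Rik and Ctnna3 passed each time, those of Rin2 and Lrrtm3 missed the threshold without either Tg male library, that of Ank3 also without Tg male 1, and that of Grm8 without Tg female 1. Cardiomyocyte markers in the Dkk3/Prg4 nuclei summed to 2354 and 1035 CPM in the Tg female and 1661 and 1829 CPM in the Tg male libraries, and their part in these terms was not tested.

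**Figure D5:**
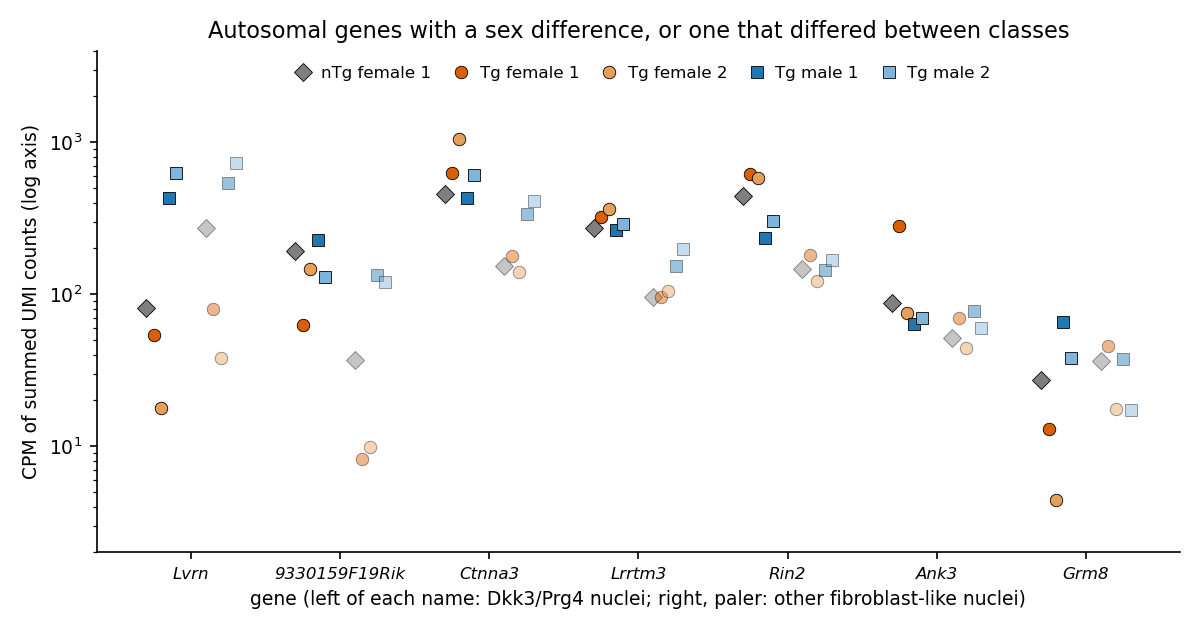
CPM of summed UMI counts (log axis) of Lvrn and the 6 genes with a class by sex term (x axis) in each library, in the Dkk3/Prg4 nuclei (left points) and the other fibroblast-like nuclei (right, paler points). The male libraries (squares) lie above the female ones for Lvrn in both classes, and for 9330159F19Rik they lie above the Tg female ones only among the right points.

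The library labelled nTg female 1 was set beside the 4 Tg libraries with no test, since it is the only one of its label and Ccna2 goes against that label. Of 8522 genes at 20 CPM or more, 124 (1.46%) were at least 2-fold higher than the mean of the Tg libraries and above their range, and 163 (1.91%) at least 2-fold lower and below it. The same count for each Tg library against the other 4 gave 205 higher with 97 lower, and 901 with 756, in the Tg female pair. In the Tg male pair it gave 117 with 242, and 179 with 288. The nTg library thus differed from the rest no more than single Tg libraries did, and Tg female 2, with 73 nuclei, differed most. In the other fibroblast-like nuclei, with far more UMIs, the counts for the nTg library were 12 and 19.

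The 5 genes with the highest ratios in the nTg library were Car3, Cfd, Plin1, Fam155a and Kit, of which the first 3 are genes of fat cells. Car3, a carbonic anhydrase abundant in fat, had 78 UMIs (102 CPM) there and 1 UMI over the 4 Tg libraries. Cfd (adipsin) had 29 UMIs against 0, and Plin1 (perilipin, which coats lipid droplets) 17 UMIs against 2. The 4 adipocyte markers summed to 44.2 CPM in this library and to 0 to 3.04 CPM in the Tg libraries, and 1 Dkk3/Prg4 nucleus in all had 2 or more of them. Without Adamts15 in the rule, Cfd and Plin1 had a log2 ratio of 0. Fam155a (44.2 CPM against 0 to 8.01 CPM) and Kit (20.8 against 1.00 to 4.44 CPM) were the other 2, and the ratio of Kit turned to -0.32 without Adamts15 in the rule. The 5 lowest included 3 genes that lie close together on chromosome 4 (Gm17167, 4930578G10Rik and Gm12394, from 42206998 to 42856771), all with 0 UMIs in the nTg library. Gm17167 had 177, 12, 125 and 68 UMIs in the Tg libraries, and 4930578G10Rik and Gm12394 had 5 to 39. These genes have near-identical copies in that region, so the counting can split their reads. The other 2 were Wdr17, at 13 CPM against 103 to 680 CPM, and 8030451A03Rik, at 2.60 CPM against 3.0, 649, 3.04 and 4.94 CPM, where Tg female 2 alone sets the difference.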

How the data were processed

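Single-nucleus libraries of adult mouse heart were read from the deposited matrices, which hold raw UMI counts per gene and barcode with no normalization by the authors. Counting used Cell Ranger 7.0.0, per the file headers. The build was mm10, per the submitters' processing notes, and the counting of introns is not given in the sources used here. Gene positions are from GENCODE vM21 (GRCm38), used for names and positions only.

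The members, the lists and the named genes were chosen with earlier results of these data known. Named genes were the 5 rule genes, the 15 highest and 10 lowest ratios at 50 CPM or more with 1 direction in every library, called genes at 10 CPM or more without overlap, the sex-linked genes, the 5 highest and 5 lowest ratios of the nTg library, and examples from the lists. A gene that this rule names is not reported here. Counts were summed per library and class. The tests used edgeR 4.0.16 (TMM scaling, filterByExpr, quasi-likelihood, R 4.3.3), with DESeq2 1.42.0 as an alternative. The edgeR step was tested on simulated data with 200 of 9284 genes changed for the sex comparison in these nuclei: 27.6% of 2-fold, 96.5% of 4-fold and 100% of 8-fold changes were recovered, and 4.70% of calls were false. The simulation gave every gene the same dispersion and let no library stand apart, so recovery in the real data may be lower. In the real test Kdm5d and Eif2s3y missed the threshold. They were at least 17.4- and 33.9-fold lower in females, against a floor of 3 UMIs over the female group. Clustering used scanpy 1.11.5 and leidenalg 0.10.2 (2000 variable genes, 30 components, 15 neighbours, resolution 1), centred within each library. Doublets were scored with scrublet in scanpy at an expected 6% and removed only in an alternative. The caller marked 0% in the library labelled Tg female 2, where the top 5% of scores were taken instead. Other alternatives were thinning, filters, scalings, covariates, stricter rules and leaving out each library.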

Additional observations from a re-analysis of the deposited data

Results flagged for a closer look

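The sex difference of 6 genes differed between the Dkk3/Prg4 nuclei and the other fibroblast-like nuclei by edgeR's test of that difference itself. On the log2 scale the difference, class by sex, was 2.87 for 9330159F19Rik, 1.87 for Ctnna3, 1.20 for Rin2, 1.10 for Lrrtm3, 1.72 for Ank3 and -2.76 for Grm8. Over the alternatives the edgeR or DESeq2 adjusted p ran up to 0.00134 for 9330159F19Rik and 0.0192 for Ctnna3, and up to 1 for Grm8 and Ank3 and 1.00 for Rin2 and Lrrtm3. Library Tg female 1 alone was high for Ank3 (279 CPM, against 63.9 to 87.2 CPM in the other 4), and Grm8 rests on 14 female UMIs. The nuclei that needed Adamts15 were 62.1% and 9.59% of the Dkk3/Prg4 nuclei in the Tg female pair and 69.0% and 78.4% in the Tg male pair. A sex difference within nuclei and a difference in the makeup of the set cannot be told apart in these terms.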

How the results depend on the processing

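Counts of genes higher and lower than in the other fibroblast-like nuclei (191 and 32) were 359 and 364 with 3 or more rule genes and 328 and 197 without Adamts15. Thinning gave 70 lower, and leaving out 1 library gave 183 to 240 and 21 to 55. For the nTg library (124 and 163), a fold of 3 gave 19 and 39, Tg female libraries only 258 and 414, no Adamts15 290 and 374, and leaving out 1 library 136 to 174 and 156 to 242. The sex test (5 genes) gave 8 with DESeq2 size factors, 42 with DESeq2, 286 with no filter, 9 with genotype as a covariate, 12 with 5 libraries and no covariate, 10 without doublets, 12 without Adamts15 and 50 to 617 without 1 library (617 without Tg female 1, 325 without Tg female 2, 105 without Tg male 2). With 10 or more UMIs in every library edgeR called 0 of 4932 genes, 488 of them at an unadjusted p under 0.05. The class by sex test (6 genes) gave 2 with DESeq2, 70 with no filter, 30 without doublets, 3 with 5 libraries, 30 without Adamts15 and 12 to 332 without 1 library (332 without Tg female 1). The cause of these shifts was not tested, and where a library is left out its arm holds 1 sample, assumed to vary like the others. The sex difference in share (-1.45 points) turned to 0.134 with 3 or more rule genes, 0.0832 with Dkk3 or Prg4 among the 2 and 0.623 without Adamts15 (1.04 with the nTg library among the females), and ran from -3.71 to 0.813 without 1 library. Grm8 (5.42), Ank3 (-0.23) and Kit (-0.32) turned sign without Adamts15. Of the other values of named genes, 392 kept direction and side, 17 lost the threshold, 14 gained it and 40 moved.

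Labels give the replicate numbers 1 and 2 to both sexes, but nothing says that a number marks a shared animal or batch. Same-numbered libraries did not deviate together (correlation 0.02). With the replicate number as a block, the sex test called 94 genes, the 5 among them.

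With 73 nuclei in the library labelled Tg female 2 and 2 libraries a sex, most 2-fold changes would be missed, as the simulated data show. Larger changes can be missed too, as Kdm5d and Eif2s3y were.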
